A study of Mus musculus with 12 samples.

Results

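The Rab GTPases were followed in RNA sequencing of mouse osteoclast precursor cells, with and without dexamethasone, a synthetic glucocorticoid. Members were the genes of the count table whose symbol is Rab followed by a number and at most a letter and a further digit, with at least 120 counts summed over the 12 libraries. Of 56 such symbols among the 28293 genes of the table, 47 reached that floor and 9 did not. Each member was placed in an endosomal (13 genes), lysosomal (11), secretory (19) or other (4) class by the best known site of its protein.

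Non-adherent marrow cells of wild-type male C57BL/6J mice, 6 months old, had been grown for 3 days in M-CSF at 10 ng/ml and then given RANKL, the cytokine that turns them into osteoclasts, at 25 ng/ml with M-CSF kept at 10 ng/ml. Both groups therefore had RANKL and M-CSF. The RANKL group (6 libraries) received RANKL without steroid for 24 h, and the RANKL+Dex group (6 libraries) received it with 10 nM dexamethasone, a culture model of steroid-induced osteonecrosis of the femoral head. The protocol does not make clear whether this treatment came after an earlier period in RANKL. A batch number from 1 to 6 is shared between the groups, and the sources used here do not say whether each culture came from its own mouse. Cultured marrow can also hold other blood cells, whose genes were followed beside the results.

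Rab proteins are small GTPases that mark the membranes of a cell. Loaded with GTP by an exchange factor, a Rab recruits effectors that move, tether and fuse vesicles, until a GTPase-activating protein ends the signal and a GDP dissociation inhibitor takes the Rab off the membrane. In osteoclasts this traffic sends late endosomal and lysosomal membrane, with acid pumps and proteases such as cathepsin K, to the ruffled border that faces bone, returns digested matrix across the cell and moves integrins and receptors through endosomes.

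Library totals ran from 16820193 to 28523595 counts, with 20252 to 21776 genes detected. The Rab genes took 0.372 to 0.395% of the counts in RANKL libraries and 0.394 to 0.419% in RANKL+Dex libraries. All 12 osteoclast lineage markers were measured (Tnfrsf11a, Csf1r, Ctsk, Acp5 and others), and their summed level was 49829 to 54116 CPM in RANKL and 51428 to 55716 CPM in RANKL+Dex, most of it from Mmp9 and Ctsk. CPM are counts scaled to library size with TMM factors, and a positive log2 fold change means a higher level with dexamethasone. Differences were tested with edgeR's quasi-likelihood test, and a gene was called at a Benjamini-Hochberg adjusted p under 0.05 over all 13775 tested genes.

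Dexamethasone raised 10 of the 47 Rab genes and lowered 3, and 34 were not called. Called members made up 27.7% of the family, against 15.5% of all tested genes (7.98% called higher and 7.55% called lower). The family's share of genes called higher was above that of all tested genes, and its share called lower was near their 7.55%. The genes that rose were Rab22a, Rab21, Rab5a and Rab4a of the endosomes, Rab7, Rab38, Rab34 and Rab29 of the late endosome and lysosome, and Rab1a and Rab2a of the path from the endoplasmic reticulum to the Golgi. The genes that fell, Rab3d, Rab19 and Rab44, were all in the secretory class. Rab19 and Rab44 passed the filter on low counts through the RANKL group alone, which favours a fall. The call of Rab3d ended in 9 alternative settings. Apart from Rab4a, which rose 2.35-fold from a low level, the called increases lay between 12.3% (Rab5a) and 27.3% (Rab38). In bulk RNA, a change in the number of cells of a type and a change of RNA per cell cannot be told apart.

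The median log2 fold change over the 47 members was 0.06, against -0.00 over all tested genes, and 31 members had a positive value. The share of positive values was 49.0% over all genes. All 47 members passed the filter on low counts, but Rab19 and Rab44 did so through the RANKL group alone, with 6 RANKL libraries and 1 RANKL+Dex library at the filter's level of 0.492 CPM. For those 2 genes passing the filter already called for a higher RANKL level. With the batch number as a block, 12 members were called higher and 5 lower, against 10.6% and 11.1% of all genes. The share called lower was again near that over all genes.

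Osteoclast markers changed beside the Rab genes, 5 of the 12 higher and 1 lower, against 7.98% and 7.55% of all tested genes. Calcr, the calcitonin receptor, rose 2.79-fold from 97.4 ± 7.90 to 272 ± 32.7 CPM (SD, n = 6; adjusted p 1.26e-09). Ctsk (cathepsin K) rose by 14.6% and Acp5, the tartrate-resistant acid phosphatase, by 12.3% (adjusted p 0.000114 and 0.00930). Oscar, a costimulatory receptor, rose 1.15-fold and Nfatc1, the transcription factor induced by RANKL, by 10.6% (adjusted p 0.0105 and 0.0273), while the integrin gene Itgb3 fell by 9.91% (adjusted p 0.0132). Leaving out a library or a batch gave adjusted p-values of up to 0.0993 for Nfatc1 and 0.0540 for Itgb3, and of under 0.05 for the other 4. The other 6 markers, Mmp9, Tnfrsf11a, Csf1r, Dcstamp, Ocstamp and Atp6v0d2, were not called. The part of these changes in the increases of Rab7 and other members was not tested.

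**Figure D1:**
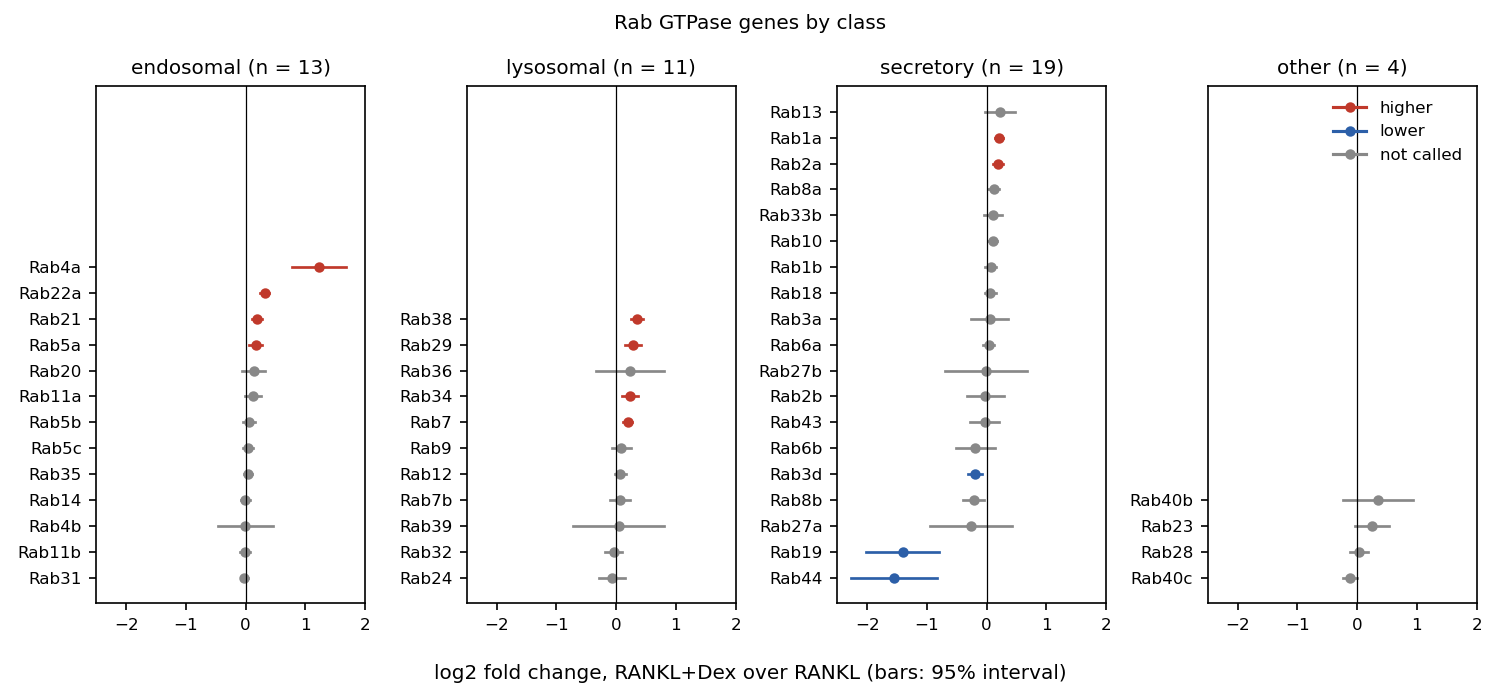
Log2 fold change of each of the 47 Rab genes, RANKL+Dex over RANKL (x axis), in 4 panels by class, with 95% intervals as bars and red, blue and grey for genes called higher, lower and not called. The red points of the endosomal and lysosomal panels lie right of 0, and the blue points are Rab3d, Rab19 and Rab44 in the secretory panel.

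Calls were counted by class, beside 7.98% of all tested genes called higher and 7.55% called lower. Of the 13 endosomal genes 4 rose and none fell, with a median log2 fold change of 0.05, and of the 11 lysosomal genes 4 rose and none fell, with a median of 0.09. Of the 19 secretory genes 2 rose and 3 fell, with a median of 0.03, and none of the 4 other genes was called. A finer division put 3 of the 4 endosomal increases among the 7 early endosome genes and 1 among the 6 recycling genes. Both secretory increases and the fall of Rab19 were among the 10 genes of the endoplasmic reticulum and Golgi, and the falls of Rab3d and Rab44 were among the 9 post-Golgi genes. Without Rab19 and Rab44, which a filter of 1 CPM in 6 libraries leaves out, the secretory class held 2 genes called higher and 1 called lower. Of the members with a mean of at least 10 CPM, 11 were endosomal, 9 lysosomal and 11 secretory. Their medians were 0.05, 0.09 and 0.10 in that order, so the secretory class stood highest at that level. These counts rest on the class given to each gene, and another place for a called gene, such as Rab44, would change them. The difference between classes was not tested.

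Summed over members, the lysosomal class ranged from 944 to 1061 CPM in RANKL (median 1011) and from 1061 to 1224 CPM in RANKL+Dex (median 1139). The endosomal class ranged from 1395 to 1471 CPM in RANKL (median 1427) and from 1450 to 1554 CPM in RANKL+Dex (median 1491). The secretory class ranged from 1252 to 1319 CPM in RANKL (median 1271) and from 1315 to 1422 CPM in RANKL+Dex (median 1358). Within batches the lysosomal and endosomal sums were higher in RANKL+Dex in 6 of 6 batches and the secretory sum in 5 of 6. The sum over all 47 members was 3780 ± 86.6 CPM (SD, n = 6) in RANKL and 4050 ± 111 CPM (SD, n = 6) in RANKL+Dex. Such sums weigh the members with most counts, such as Rab7.

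Levels can be compared between genes only per length, here as CPM per kb of merged exons. On that scale in RANKL libraries Rab7 led with 246, followed by Rab1b with 122, Rab5c with 109, Rab1a with 75.3 and Rab31 with 65.4. Genes of all 3 transport classes thus stood among the most abundant members. At the other end were Rab36 (0.0920), Rab27b (0.0944), Rab27a (0.134) and Rab44 (0.165). Rab27a and Rab27b are the Rabs best known from regulated secretion of lysosome-related granules.

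**Figure D2:**
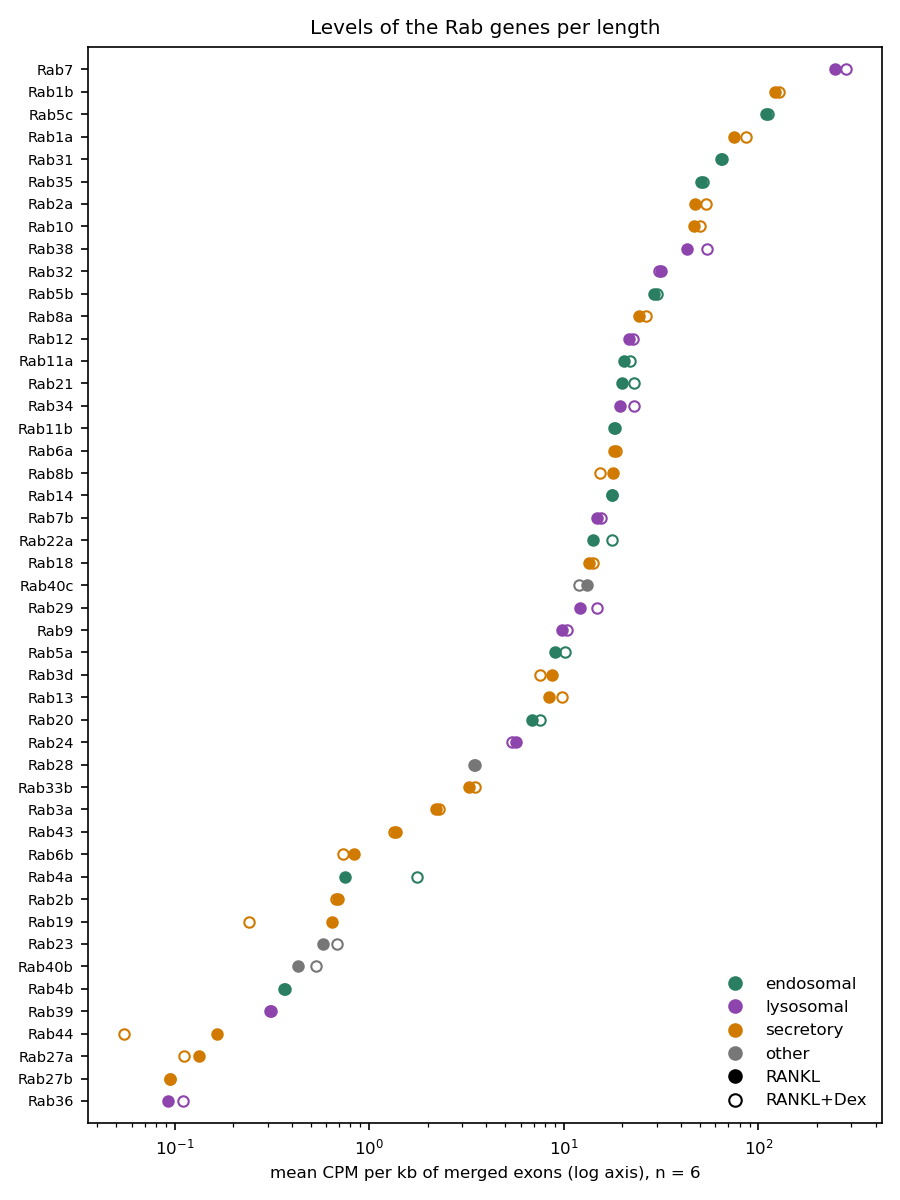
Mean level of each Rab gene in CPM per kb of merged exons on a log axis (n = 6 libraries per group), ordered by the RANKL mean, with filled points for RANKL, open points for RANKL+Dex and colours for the class. Rab7 stands at the top with 246 in RANKL and 282 in RANKL+Dex, and the widest gaps between filled and open points are those of Rab4a, Rab19 and Rab44.

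Among the early endosome genes, Rab22a (ENSMUSG00000027519, chr2:173501553-173549136, plus strand, GRCm39), which sorts cargo from early endosomes towards recycling, changed with the smallest adjusted p of the family. Its level was 98.4 to 107 CPM in RANKL (median 102) and 120.4 to 133 CPM in RANKL+Dex (median 128). Every RANKL+Dex library lay above every RANKL library, a separation shown by 8 members in either direction and by 7.01% of all tested genes. The 8 include Rab44, which passed the filter through its RANKL libraries alone. The increase of Rab22a was 24.5% (log2 fold change 0.32 ± 0.04, SE; adjusted p 1.27e-05), and the ratio within batches ran from 0.21 to 0.43 on the log2(CPM + 0.5) scale.

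Rab21 (ENSMUSG00000020132, chr10:115122989-115151499, minus strand), an early endosome Rab that binds integrin tails, was at 93.2 to 108 CPM in RANKL (median 101) and 110.2 to 120.5 CPM in RANKL+Dex (median 115). The groups did not overlap, and the increase was 14.3% (log2 fold change 0.19 ± 0.04, SE; adjusted p 0.00333). Rab5a (ENSMUSG00000017831, chr17:53786262-53814708, plus strand), which drives fusion of early endosomes, was at 44.6 to 54.2 CPM in RANKL (median 46.7) and 49.5 to 57.9 CPM in RANKL+Dex (median 53.7). Its groups overlapped through RANKL replicate 1, the highest RANKL library. Rab5a rose by 12.3% (log2 fold change 0.17 ± 0.05, SE; adjusted p 0.0419), was lower in RANKL+Dex in batch 1 alone, and lost its call in 14 alternative settings, at most with an adjusted p of 0.147 without batch 6.

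The other Rab5 genes and Rab31 did not pass the test. Rab5c, the Rab5 paralog with the highest level per length, was at 227 to 249 CPM in RANKL (median 239.7) and 229.9 to 269 CPM in RANKL+Dex (median 244). Its interval for the difference ran from -2.85 to 9.32% (adjusted p 0.526), and it was higher in 3 batches and lower in 3. Rab31, a relative of Rab22a that works between the trans-Golgi network and endosomes and had the most counts among early endosome genes, was at 242 to 255 CPM in RANKL (median 249) and 237 to 251 CPM in RANKL+Dex (median 245). Its interval from -5.80 to 2.53% ended below that of Rab22a, which began at 18.2%. Rab5b and Rab20 had log2 fold changes of 0.05 and 0.14 and were not called.

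The promoters of Rab5a and Rab21 are shown because both genes rose and both hold GTCACGTG, an E-box of the type bound by the lysosomal regulators TFEB and TFE3. Rab24 is shown as the third member with these letters, and it was not called. Rab22a, Rab7, Rab34, Rab29 and Rab1a also rose, and their windows did not hold these letters. The windows run from 250 bases before to 50 after a RefSeq start (GRCm38.p6), 5′ to 3′ on the gene's strand, and capitals mark GTCACGTG on either strand, whose matches overlap where the run reads GTCACGTGAC.
Rab5a, chr17:53478984-53479283, plus strand: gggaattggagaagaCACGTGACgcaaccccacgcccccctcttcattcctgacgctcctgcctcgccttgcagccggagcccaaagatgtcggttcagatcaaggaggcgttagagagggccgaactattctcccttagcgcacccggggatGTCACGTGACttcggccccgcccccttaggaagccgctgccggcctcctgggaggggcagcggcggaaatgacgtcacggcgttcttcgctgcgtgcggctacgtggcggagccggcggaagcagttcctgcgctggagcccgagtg
Rab21, chr10:115315542-115315841, minus strand: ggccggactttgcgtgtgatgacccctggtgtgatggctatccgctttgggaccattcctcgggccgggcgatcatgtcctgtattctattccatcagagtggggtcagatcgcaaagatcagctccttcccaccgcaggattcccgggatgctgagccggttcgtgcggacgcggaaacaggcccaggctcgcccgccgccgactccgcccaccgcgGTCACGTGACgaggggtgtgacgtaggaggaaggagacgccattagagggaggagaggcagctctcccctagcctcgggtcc
Rab24, chr13:55321931-55322230, minus strand: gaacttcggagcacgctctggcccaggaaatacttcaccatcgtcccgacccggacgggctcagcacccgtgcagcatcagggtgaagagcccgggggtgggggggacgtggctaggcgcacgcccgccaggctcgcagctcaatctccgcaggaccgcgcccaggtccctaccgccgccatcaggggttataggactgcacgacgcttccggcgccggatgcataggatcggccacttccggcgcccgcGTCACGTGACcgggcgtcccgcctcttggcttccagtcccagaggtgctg

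In Rab5a the matches start 235 and 97 bases before the transcription start, in Rab21 32 bases before it, and in Rab24 at base 1 of the transcript. The RefSeq table held 48 windows of 39 members, without Rab4a, Rab7b, Rab18, Rab27b, Rab36, Rab38, Rab2a and Rab44. Searched on both strands, GTCACGTG was in 3 of 48 windows (6.25%) against 2.25% of 32851 windows of all genes. CACGTG, which lies inside it, was in 6 windows (12.5%) against 7.15%. The glucocorticoid receptor half-site AGAACA was in 5 windows (10.4%) against 19.0%, and the receptor's full palindrome in none of the 48 and in 3 of all windows. The 5 members with the half-site were Rab5c, Rab11a, Rab13, Rab28 and Rab32. None of them was called without the batch block, and Rab13 was called higher with it. Rab windows had a median GC content of 63.3% against 52.7% in all windows, and a median of 23.5 CG pairs against 7. CACGTG itself holds a CG, and the part of this difference in the shares above was not tested. A match is a run of letters, not a measured site.

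Of the recycling genes, Rab4a (ENSMUSG00000019478, chr8:124532724-124562026, plus strand), which returns receptors from early endosomes to the surface, had the largest fold increase of the family. It was at 0.687 to 1.82 CPM in RANKL (median 1.42) and 2.42 to 3.67 CPM in RANKL+Dex (median 3.02). The groups were fully separate, with 166 counts summed over RANKL and 380 summed over RANKL+Dex. The log2 fold change was 1.23 ± 0.21 (SE; adjusted p 0.000824), with a 95% interval of 0.78 to 1.68. Its paralog Rab4b had a log2 fold change of -0.00 and was not called, and 44.4% of its 150-base runs also occur in Gm21983.

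Rab11a and Rab11b, which run the recycling endosome, did not pass the test. Rab11a was at 56.6 to 68.8 CPM in RANKL (median 59.8) and 57.5 to 76.7 CPM in RANKL+Dex (median 65.8), with an interval for the difference of -1.01 to 19.0% (adjusted p 0.230). Rab11b was at 107 to 119 CPM in RANKL (median 112) and 105 to 121 CPM in RANKL+Dex (median 109.6), with an interval of -6.82 to 4.60% (adjusted p 0.810). Its pseudogene Rab11b-ps2 shares 150-base runs with it and held 3093 counts. Rab14, a Golgi and endosome Rab with the most counts of the recycling genes, was at 231 to 251 CPM in RANKL (median 240.4) and 227 to 259.9 CPM in RANKL+Dex (median 238), and its interval was -5.35 to 5.18% (adjusted p 0.969).

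In the lysosomal class, Rab7 (ENSMUSG00000079477, chr6:87976088-88022252, minus strand) directs late endosomes to lysosomes and is needed in osteoclasts for the ruffled border. Rab7 was at 607 to 672 CPM in RANKL (median 644) and 681 to 774 CPM in RANKL+Dex (median 738). Every RANKL+Dex library lay above every RANKL library, and the ratio within batches ran from 0.13 to 0.24 on the log2(CPM + 0.5) scale. The increase was 14.4% (log2 fold change 0.19 ± 0.04, SE; adjusted p 0.00160). Of the 150-base runs of Rab7 transcripts, 7.17% also occur in Rab7-ps1 or Gm5577. The pseudogene Rab7-ps1 held 5002 counts against 171627 for Rab7 and was not called (log2 fold change 0.17, adjusted p 0.108).

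Rab38 (ENSMUSG00000030559, chr7:88079481-88140780, plus strand), known with Rab32 for building melanosomes and other lysosome-related organelles, rose more than Rab7. It was at 62.6 to 69.9 CPM in RANKL (median 68.1) and 77.1 to 93.2 CPM in RANKL+Dex (median 87.6). The groups did not overlap, and Rab38 was higher in 6 of 6 batches. The increase was 27.3% (log2 fold change 0.35 ± 0.05, SE; adjusted p 7.37e-05). Rab32 itself had a log2 fold change of -0.04 with an interval of -12.3 to 7.50% and was not called.

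Rab34, which positions lysosomes near the Golgi, was at 42.1 to 52.5 CPM in RANKL (median 45.5) and 47.8 to 63.9 CPM in RANKL+Dex (median 53.8). Of its RANKL+Dex libraries 4 lay above the highest RANKL library. It rose by 17.3% (log2 fold change 0.23 ± 0.07, SE; adjusted p 0.0264), was higher in 6 of 6 batches, and lost its call in 8 settings that left out a library or a batch. Rab29, which draws the kinase Lrrk2 to stressed lysosomes and the trans-Golgi network, was at 16.5 to 19.8 CPM in RANKL (median 17.8) and 19.4 to 24.6 CPM in RANKL+Dex (median 21.3). Only its lowest RANKL+Dex library fell within the RANKL range, and the increase was 21.5% (log2 fold change 0.28 ± 0.06, SE; adjusted p 0.00716).

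The 7 lysosomal genes without a call had log2 fold changes from -0.07 (Rab24) to 0.24 (Rab36). Rab7b and Rab9, which work between endosomes and the trans-Golgi network, were at 0.06 and 0.09, and Rab12, a Rab of transferrin receptor degradation, was at 0.07. Rab36 and Rab39 were near or under 1 CPM, where intervals were wide, -20.7 to 74.8% for Rab36 and -39.3 to 74.3% for Rab39. Transcripts of Rab24 share 33.2% of their 150-base runs with Prelid1 on the opposite strand, so counts for Rab24 are uncertain.

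**Figure D3:**
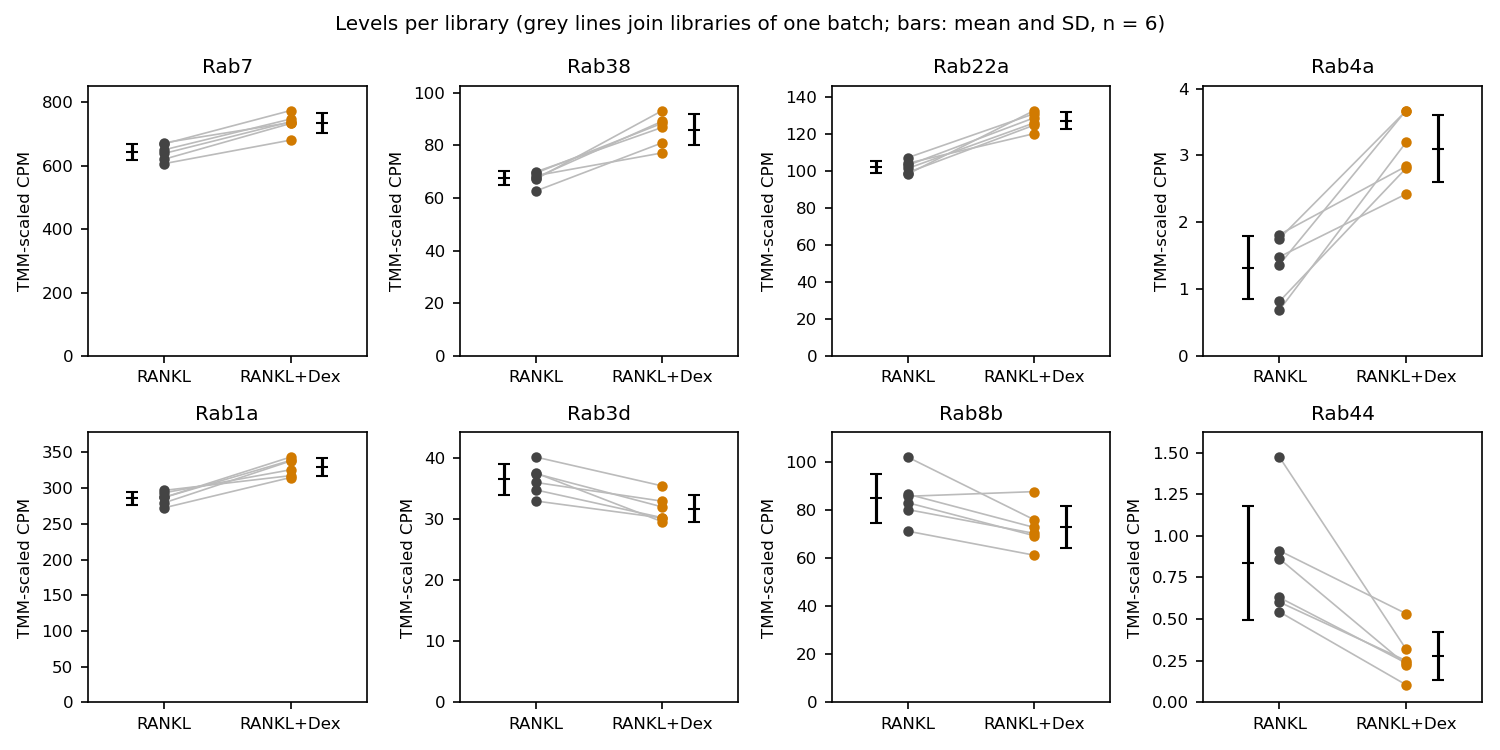
TMM-scaled CPM of 8 Rab genes in each library, RANKL in grey and RANKL+Dex in orange, with lines joining libraries of the same batch and bars for the mean and SD (n = 6). Rab7, Rab38, Rab22a, Rab4a and Rab1a are higher in every RANKL+Dex library, Rab44 is lower in every one, and Rab3d and Rab8b overlap between the groups.

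In the secretory class, the genes of the path from the endoplasmic reticulum to the Golgi included both increases. Rab1a (ENSMUSG00000020149, chr11:20151432-20176856, plus strand), which tethers vesicles leaving the endoplasmic reticulum, was at 272 to 297 CPM in RANKL (median 287) and 315 to 344 CPM in RANKL+Dex (median 332). Its groups did not overlap, and it rose by 15.3% (log2 fold change 0.21 ± 0.03, SE; adjusted p 0.000542). Rab2a (ENSMUSG00000047187, chr4:8535644-8607778, plus strand), of the intermediate compartment and Golgi, was at 97.0 to 104 CPM in RANKL (median 100.3) and 105 to 122 CPM in RANKL+Dex (median 115). The groups did not overlap, though RANKL+Dex replicate 1 lay close to the highest RANKL library and batch 1 had a log2 ratio of 0.02. The increase was 14.3% (log2 fold change 0.19 ± 0.04, SE; adjusted p 0.00401).

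Their paralogs were not called. Rab1b had a log2 fold change of 0.07 with an interval of -1.80 to 11.8% and Rab2b one of -0.02 with -20.7 to 22.6%, and 47.8% of the 150-base runs of Rab2b are shared with Tox4 and Gm43766. Rab6a, Rab18 and Rab33b, of Golgi and lipid droplet traffic, had log2 fold changes of 0.03, 0.06 and 0.10 and were not called. Rab6b was at -0.19 and Rab43 at -0.03, and neither was called. Of the 150-base runs of Rab43, 72.9% also occur in Gm45140, an overlapping gene on the same strand with 54 counts, against 1877 for Rab43.

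Rab19 (ENSMUSG00000029923, chr6:39358109-39367314, plus strand), a Golgi Rab, fell from a low level. It was at 0.515 to 1.40 CPM in RANKL (median 1.05) and 0.178 to 0.624 CPM in RANKL+Dex (median 0.365). One RANKL library lay within the RANKL+Dex range, and the fall was seen in 6 of 6 batches. The log2 fold change was -1.41 ± 0.29 (SE; adjusted p 0.00328), from 131 counts over RANKL and 47 over RANKL+Dex. Rab19 passed the filter through its RANKL libraries alone, which favours such a fall and its call.

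Of the 9 post-Golgi genes none was called higher and 2 fell. Rab3d (ENSMUSG00000019066, chr9:21818787-21829488, minus strand), a Rab of regulated exocytosis that mouse osteoclasts need for bone resorption, was at 32.9 to 40.1 CPM in RANKL (median 36.7) and 29.5 to 35.4 CPM in RANKL+Dex (median 31.1). Of its RANKL+Dex libraries 5 lay below the lowest RANKL library. Rab3d fell by 12.8% (log2 fold change -0.20 ± 0.06, SE; adjusted p 0.0254), in 6 of 6 batches, and lost its call in 9 settings that left out a library or a batch, with an adjusted p of at most 0.100 without batch 6.

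Rab44 (ENSMUSG00000064147, chr17:29333119-29367954, plus strand), a large Rab with EF hands that restrains osteoclast formation in mouse cells, was at 0.544 to 1.47 CPM in RANKL (median 0.746) and 0.106 to 0.533 CPM in RANKL+Dex (median 0.244). The groups did not overlap, at 103 counts over RANKL and 34 over RANKL+Dex. Rab44 passed the filter through its RANKL libraries alone, which favours both this separation and the call. The log2 fold change was -1.55 ± 0.34 (SE; adjusted p 0.00551). On the opposite strand it overlaps Rpl35a-ps3, a ribosomal protein pseudogene with 182 counts that was not called (adjusted p 0.508), and without strand their reads cannot be told apart.

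Neutrophil markers moved with these falls. All 5 tested of 8 listed (S100a8, S100a9, Ngp, Ltf and Mpo) fell, against 7.55% of all tested genes called lower. The summed level of the 7 measured went from 22.8 to 36.7 CPM in RANKL to 6.19 to 10.0 CPM in RANKL+Dex. Camp was at 0 in RANKL+Dex replicate 2 and Mpo in RANKL+Dex replicate 5, all 7 had counts in every RANKL library, and Ly6g was not analysed here. Mpo could therefore not pass the filter on low counts without RANKL libraries, which favours its fall and its call. Mast cell and basophil markers summed to 0.340 to 1.23 CPM in RANKL and 1.12 to 2.19 CPM in RANKL+Dex, nearly all from Gata2, and endothelial markers to 43.1 to 54.6 and 32.1 to 38.8 CPM, mostly Vwf. Macrophage markers summed to far more, 4619 to 7151 CPM in RANKL and 4613 to 7257 CPM in RANKL+Dex. Stromal and osteoblast markers summed to 9.02 to 23.8 and 4.68 to 20.2 CPM, and both of these lists overlapped between groups. Of the tested markers, 3 of 5 endothelial and 1 of 5 stromal and osteoblast genes were called lower. Of 8 macrophage genes 1 was higher and 1 lower, and the 1 tested mast cell and basophil gene was higher. Over all tested genes 7.98% were called higher and 7.55% lower. The part of any of these cell types in the falls of Rab44, Rab19 and Rab3d was not tested.

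Rab27a, the Rab of lysosome-related granule release, gave no call at a level near the filter. It was at 0.172 to 0.738 CPM in RANKL (median 0.574) and 0.265 to 0.676 CPM in RANKL+Dex (median 0.425), and its interval of -47.9 to 34.5% allows a sizable change in either direction (adjusted p 0.660). Rab3a and Rab27b had log2 fold changes of 0.05 and -0.01.

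The call of 4 members changed with the batch as a block. Rab8b, which carries post-Golgi vesicles to the surface, was at 71.2 to 102 CPM in RANKL (median 84.3) and 61.2 to 87.6 CPM in RANKL+Dex (median 71.5), with an adjusted p of 0.0833 that became 0.00345. Its libraries overlapped between groups while it was lower in 5 of 6 batches, with batch 2 at 0.03 on the log2 scale. Its paralog Rab8a was at 108 to 121 CPM in RANKL (median 114) and 115 to 131 CPM in RANKL+Dex (median 123), higher in 6 of 6 batches, and its adjusted p went from 0.0765 to 0.0396.

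Rab13, a Rab of junctions and polarised delivery, was at 14.2 to 24.0 CPM in RANKL (median 20.1) and 16.8 to 27.8 CPM in RANKL+Dex (median 22.6). Batch 3 alone went the other way, and the adjusted p went from 0.246 to 0.0337. Rab40c, which joins a Cul5 ubiquitin ligase, was at 38.4 to 45.3 CPM in RANKL (median 39.9) and 33.1 to 41.1 CPM in RANKL+Dex (median 36.6). It was lower in 6 of 6 batches, and the adjusted p went from 0.148 to 0.0419. Of the other class, Rab23 (log2 fold change 0.25), Rab28 (0.03) and Rab40b (0.34) were not called with either fit.

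Rab10, the exocytic Rab with the most counts among post-Golgi genes, was at 156 to 176 CPM in RANKL (median 164) and 168 to 182 CPM in RANKL+Dex (median 177). It was higher in 6 of 6 batches and uncalled with either fit (adjusted p 0.0824, and 0.0544 with the block).

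**Figure D4:**
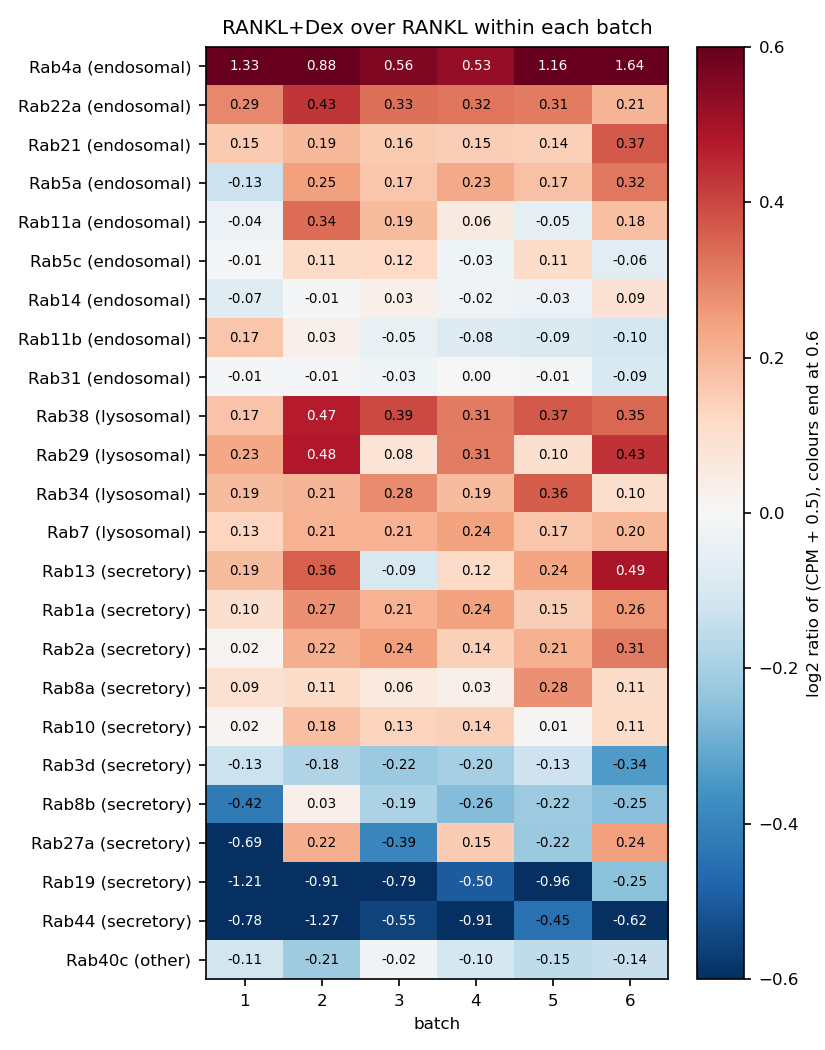
Log2 ratio of RANKL+Dex over RANKL within each of the 6 batches (columns) for the 24 Rab genes described singly (rows), computed from CPM + 0.5, with red above and blue below 0 and colours ending at 0.6. Rows of one colour are genes that moved the same way in all 6 batches, such as Rab7 (0.13 to 0.24), and Rab5a is blue in batch 1 alone.

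Several subfamilies held a called member beside an uncalled one, and their balance was followed as a share. The share of Rab38 in the summed CPM of Rab32 and Rab38 was 44.9 to 50.9% in RANKL (median 48.4%) and 52.2 to 56.1% in RANKL+Dex (median 55.5%). These ranges did not overlap. The share of Rab4a in the Rab4 pair was 46.2 to 75.6% and 73.5 to 87.1%, and that of Rab8b in the Rab8 pair 39.7 to 48.6% and 31.8 to 40.2%, with overlapping ranges in both. Rab5a took 11.0 to 12.8% of the Rab5 genes' CPM in RANKL and 11.7 to 14.1% in RANKL+Dex. Shares of CPM also depend on transcript length, so only their difference between groups is read here, and it was not tested.

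**Figure D5:**
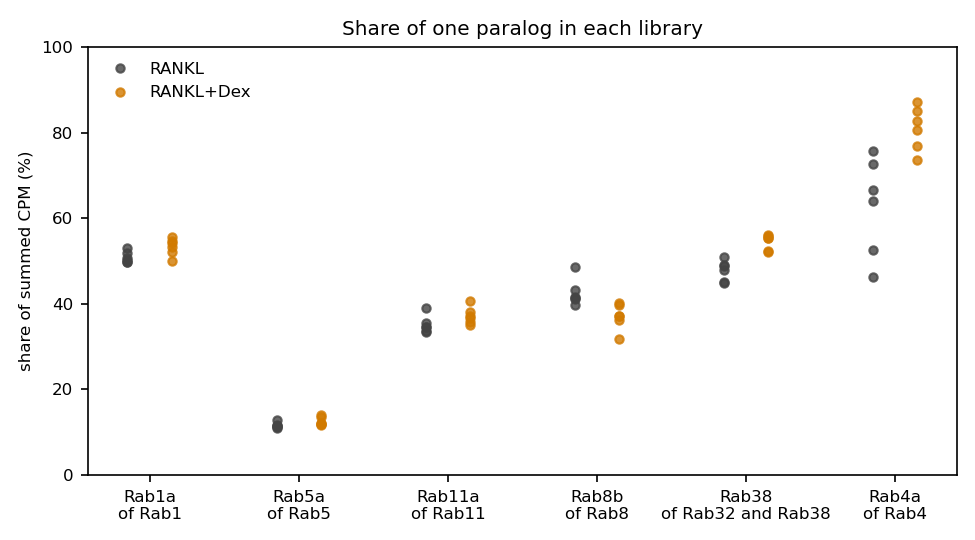
Share of a paralog in the summed CPM of its subfamily (y axis, percent) in each RANKL (grey) and RANKL+Dex (orange) library, for 6 subfamilies. Rab38 is at 44.9 to 50.9% in RANKL and 52.2 to 56.1% in RANKL+Dex, and the other subfamilies overlap between groups.

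The proteins that load, unload and answer Rabs were followed in a list of 174 genes, of which 159 were tested. Of these 19 rose and 18 fell (21 and 24 with the block), and the median log2 fold change was -0.01. Called regulators made up 23.3% of those tested, against 15.5% of all genes (7.98% higher and 7.55% lower, and 10.6% and 11.1% with the block). Without RANKL replicate 3, 12 regulators were called higher, and without batch 6 10 were. By role, 3 rose and 5 fell among 40 exchange factors, 3 and 6 among 37 GTPase-activating proteins, and 2 and 0 among 13 inhibitors and prenylation proteins, a share of 15.4%, which is near that of all genes. Among effectors 3 rose and 2 fell of 22 endosomal genes, 4 and 4 of 25 lysosomal genes, and 4 and 1 of 22 secretory genes.

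Exchange factors changed in both directions. Rin2, which activates Rab5, went from 122 ± 12.1 to 152 ± 15.6 CPM (SD, n = 6; log2 fold change 0.32, adjusted p 0.00562), and its relative Rin3 from 174 ± 4.54 to 195 ± 12.5 CPM (0.17, adjusted p 0.0104). The DENN-domain gene Dennd11 fell from 6.66 ± 0.358 to 4.32 ± 0.472 CPM (-0.62, adjusted p 0.000259). DENN domains are known from exchange factors of many Rabs.

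The GTPase-activating genes known to act on Rab7 included one that rose and one that fell. Tbc1d15 rose from 58.5 ± 3.42 to 68.3 ± 1.80 CPM (log2 fold change 0.22, adjusted p 0.00167), and Tbc1d2 fell from 48.7 ± 2.18 to 40.6 ± 3.01 CPM (-0.26, adjusted p 0.00191), with no overlap of groups for either gene. Tbc1d8, another TBC-domain gene, fell from 6.10 ± 1.16 to 3.57 ± 0.573 CPM (-0.77, adjusted p 0.00103), and Tbc1d10b rose by 6.81% from 305 ± 7.63 CPM (0.10, adjusted p 0.0336). The Tbc1d10b call ended in 13 settings, with an adjusted p of up to 0.148 when no count filter was used. The GDP dissociation inhibitor gene Gdi2 had an interval of -1.09 to 9.49% and was not called. The membrane proteins Rabac1, which accepts prenylated Rabs, and Yipf1 rose by 12.1% and 9.76% (adjusted p 0.0447 and 0.0429). Their calls ended in 12 settings for Rabac1, with an adjusted p of up to 0.0977 without batch 3, and in 15 for Yipf1, with up to 0.134 with no count filter.

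Among endosomal effectors, Acap2, which binds Rab35 and turns off Arf6, rose from 618 ± 21.2 to 777 ± 45.8 CPM (log2 fold change 0.33, adjusted p 2.33e-05), while Rab35 was not called (0.03). Pik3c3, the lipid kinase recruited by Rab5, rose by 14.9% (adjusted p 0.0156). Removal of batch 2, 3 or 6 took its adjusted p to 0.0711, 0.0540 and 0.0533. The Rab5 effectors Appl2 and Ankfy1 fell by 11.2% and 8.01% (adjusted p 0.0116 and 0.0163), with no overlap of groups, and the Ankfy1 call ended with no count filter (0.0573) and without batch 2 or 6 (0.0562 and 0.0553).

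Rilp and Plekhm1, which bind Rab7, did not pass the test. Rilp, which couples Rab7 to dynein, was at 10.5 to 15.1 CPM in RANKL and 10.8 to 12.2 CPM in RANKL+Dex and was not called (log2 fold change -0.13, adjusted p 0.379). Plekhm1, a Rab7 effector whose loss in humans and rats gives osteopetrosis, was at 462 to 516 CPM in RANKL and 404 to 472 CPM in RANKL+Dex (-0.10, adjusted p 0.0954, and 0.0265 with the block). Lrrk1, a kinase that phosphorylates Rab7 and whose loss in mice gives osteopetrosis, fell from 56.8 ± 3.03 to 49.0 ± 2.75 CPM (-0.21, adjusted p 0.00523), in 5 of 6 batches.

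The relatives Rilpl2 and Plekhm3 rose by 24.3% and 24.0% (adjusted p 0.000285 and 0.000143), in 6 of 6 batches each. Myo5a, the motor that Rab27a recruits to melanosomes, fell by 10.3% (adjusted p 0.0169), and removal of batch 2, 3 or 6 took its adjusted p to 0.0535, 0.0578 and 0.0709. Of the secretory effectors, the Rab1 tether Uso1 rose from 213 ± 10.3 to 248 ± 8.52 CPM (log2 fold change 0.22, adjusted p 0.000683) and the Golgi stacking gene Gorasp2 by 10.2% (adjusted p 0.00642), beside Rab1a and Rab2a. Rims2, a Rab3 effector of secretion, fell by 32.3% (log2 fold change -0.56, adjusted p 0.00936), beside Rab3d. The Rab27 effectors were scarce: Sytl1 was not called (adjusted p 0.312), and Sytl2, Sytl3, Sytl4 and Sytl5 held 19, 9, 44 and 2 counts over the 12 libraries and were not tested.

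Abundance bears on what the test could show. Of the 33 members with a mean of at least 10 CPM, a level chosen after the data were seen, 9 rose and 1 (Rab3d) fell, against 10.6% and 8.92% of the 8429 genes at that level. The coefficient of variation of these members had a median of 4.96% in RANKL and 6.50% in RANKL+Dex, and the smallest called change among them was the 12.3% of Rab5a. The 9 genes under the floor held 7 to 98 counts each (Rab25, Rab15, Rab42, Rab33a, Rab30, Rab39b, Rab37, Rab26 and Rab3b) and were not tested. Of the members, Rab27a (123 counts) stood nearest above the floor of 120, and of the others Rab42 (98) nearest below.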

How the data were processed

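Poly(A) RNA of 12 cultures was sequenced as 150-base read pairs. The authors deposited whole-number read counts per gene, not normalized, with GRCm39 coordinates that are printed as given. According to the submitters' processing notes, the build was GRCm39 and the tools, listed without roles, included HISAT2 2.1.0, StringTie 1.3.3b, DESeq 1.28.0 and FastQC 0.11.5. The counting program, its strand setting and its treatment of reads with several matches were not given in the sources used here. Counts of overlapping or near-identical genes are therefore uncertain.

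The function filterByExpr (at least 10 counts in enough libraries, 15 in total) kept 13775 genes. The 2 groups of 6 were compared with edgeR 4.0.16 in R 4.3.3 (quasi-likelihood test, TMM factors, two-sided, Benjamini-Hochberg over all tested genes, threshold 0.05). SE and 95% intervals come from that fit, whose common biological coefficient of variation was 8.67%. On counts simulated without batch effects, the test was checked for recovery of set fold changes. That check gives no error rate for the calls in these data. Levels are TMM-scaled CPM, and lengths and 150-base runs come from GENCODE M21 (GRCm38), which may differ from the authors' annotation. DESeq2 1.42.0, other size factors, other filters, a batch block and fits without a library or batch were alternatives.

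By the labels' batch numbers each RANKL library has a RANKL+Dex partner. Same-batch deviations from the group means correlated at 0.186, 0.269, 0.0529, 0.0423, 0.357 and 0.0799 for batches 1 to 6, against a mean of -0.0329 between batches. Taking deviations from group means ties that last value to the same-batch ones, so the contrast is not separate evidence of pairing. The same-batch partner was the best match both ways in batches 1, 2 and 5, and was not in batches 3, 4 and 6. The smallest chi-square per gene between libraries of a group was 3.22, so none repeated another within sampling noise. The design text speaks of 6 biological replicates and the extraction protocol of triplicates, so the p-values cover only the spread among the 12 cultures, which may be technical in part.

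Members and lists were chosen with earlier results of these data known. Described singly were members called with or without the block, 9 with reported roles in osteoclasts (Rab7, Rab3d, Rab27a, Rab38, Rab44, Rab13, Rab5c, Rab11a and Rab11b) and the member with most counts of each subclass. Of each regulator role the 2 higher and 2 lower genes with the smallest p were named, with Plekhm1, Rilp, Gdi2, Lrrk1 and the Sytl genes, and a few genes chosen this way are not reported here. Other Rab genes are named by their values alone.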

Additional observations from a re-analysis of the deposited data

Results flagged for a closer look

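Of 94 groups of 6 libraries, 1 for each of the 47 members in each of the 2 conditions, 6 held a library whose gap to its nearest neighbour was large for the range of the group, and chance gives this in about 1 in 20 groups. In RANKL, replicate 1 was highest for Rab5a (54.2 CPM, the next 47.7) and Rab11a (68.8 CPM, the next 60.6), and replicate 6 for Rab40c (45.3 CPM, the next 40.8). In RANKL+Dex, replicate 2 was highest for Rab32 (85.4 CPM, the next 71.6) and Rab39 (1.92 CPM, the next 0.954), and replicate 6 for Rab14 (259.9 CPM, the next 239). Without RANKL replicate 1, Rab5a stayed called higher and the log2 fold change went from 0.17 to 0.21. The call of Rab5a ended in 14 other settings, most of them without another library or a batch.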

How the results depend on the processing

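The 4 endosomal and 4 lysosomal increases were 3 or 4 in every setting run, and no member of either class was called lower. The count of Rab genes called lower was 3, 5 with the replicate block and 1 when 1 CPM in 6 libraries was asked, which leaves out Rab19 and Rab44. The block gave 4 secretory genes higher in place of 2 and 1 gene of the other class lower in place of 0, while the stricter filter left 1 secretory gene lower. The block is the paired analysis, and it ended no member's call. Leaving out libraries or batches gave 8 to 11 Rab genes higher and 2 to 4 lower, 695 to 1290 of all genes higher and 644 to 1203 lower, and 10 to 18 regulators higher and 10 to 20 lower, against 1099 and 1040, and 19 and 18. Regulators called higher were 12 without RANKL replicate 3, 11 without batch 3 or 4, 12 without batch 5 and 10 without batch 6, and those called lower 11 without batch 2 or 6 and 10 without batch 3. All genes called lower were 663, 644 and 665 without batches 3, 4 and 6, and those called higher 695 without batch 4. Rab14 (from -0.0270 to 0.0126 on the log2 scale) and Rab11b (from -0.0572 to 0.000176), uncalled near 0, changed sign in such fits. Rab10 was called higher by DESeq2 (adjusted p 0.0493). Why counts changed was not tested. Low counts limit Rab44, Rab19, Rab27a, Rab36 and Rab39.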

Other observations

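Among the genes under the floor, Rab15 and Rab42, chosen after their values were seen, differed most in counts. Rab15, an endosomal Rab, held 2 counts over the 6 RANKL libraries, all in replicate 1, and 23 over the 6 RANKL+Dex libraries, each of which had at least 1. It lies over Fntb on the opposite strand for 24949 bases, and Fntb held 1758 counts. Rab42 held 66 counts in RANKL and 32 in RANKL+Dex. Neither entered the count test.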
